A study of Mus musculus with 4 samples.

Results

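The genes described here encode the membrane skeleton of the red cell and proteins that carry blood group antigens. They were chosen by name, with earlier results of these data known. They are Ank1, Sptb, Epb42, Add2, Slc4a1, Rhag, Rhd and Ermap, which gives 8 of the 55401 gene models in the files. RNA-seq was made from bone marrow cells that the labels call long-term hematopoietic stem cells (ltHSCs), with 2 libraries from Cpt1a-KO mice (KO) and 2 from mice labelled WT (Control). The study's text instead calls the sequenced cells HSPCs (hematopoietic stem and progenitor cells). Cpt1a encodes the carnitine palmitoyltransferase of the outer mitochondrial membrane, which lets long-chain fatty acids enter mitochondria. By the study's methods, KO mice carried floxed Cpt1a together with Vav1-Cre, and Control mice carried the floxed allele without Cre. Vav1-Cre is active across blood cells, so the deletion was not limited to stem cells. Mice were adults, 8 to 12 weeks old, on a C57BL/6 background, and no treatment is given for these libraries. The labels do not say whether a library was made from 1 mouse or a pool, so the p-values measure the spread between these libraries.

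In the red cell, spectrin tetramers form a mesh under the lipid bilayer. Ankyrin-1 and protein 4.2 tie that mesh to the anion exchanger band 3, and adducin joins spectrin to short actin filaments. Rh proteins and their partner RHAG sit in the same membrane complexes, and several of these proteins carry blood group antigens in human red cells. Most of these genes are switched on as erythroid progenitors mature, under the transcription factors GATA1 and KLF1.

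The libraries held 34083159 and 33909781 counts in KO and 20589218 and 23291747 counts in Control. Cpt1a, the deleted gene, was at 11.5 and 19.2 TPM (a level scaled by both library size and transcript length) in KO, against 37.0 and 35.6 TPM in Control (log2 fold change -1.60, edgeR adjusted p = 0.00695), so reads from the gene remained in KO. Of the 12 listed markers of stem cells, 9 had a negative log2 fold change. Procr was at 31.0 and 34.8 TPM in KO and at 29.5 and 55.0 TPM in Control, and Meis1 at 81.7 to 100 TPM over the 4 libraries. Ly6a was higher in KO, at 45.6 and 39.0 TPM, against 29.55 and 24.5 TPM in Control. Hoxb5 was the lowest of the list and did not exceed 1.12 TPM in any library. Control replicate 2 stood apart in immediate early genes, with Fos at 97.1 and 79.6 TPM in KO and at 107 and 2087 TPM in Control. The count of members called is therefore also given without that library.

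The 5 members that passed the test were all lower in KO: Ank1, Add2, Rhag, Rhd and Ermap, with log2 fold changes of -2.45 to -1.56. A gene was called at an edgeR quasi-likelihood adjusted p under 0.05, with Benjamini-Hochberg adjustment over 14635 genes. Of the 8 members 7 passed the filter on low counts, 5 were called lower and 0 higher (0 also at an unadjusted p under 0.05 and by DESeq2), where 0.212% of all genes tested were called lower and 0.451% higher. The median log2 fold change was -1.65 over the 7 members and 0.01 over all genes tested. Both KO libraries lay below both Control libraries in CPM (counts scaled to the library's total) for 7 of 7 members, which held for 18.3% of all genes tested, and in TPM for 6 of 7, which held for 16.8%. Without Control replicate 2, 6 members were called lower, where 0.828% of all genes in that fit were. With limma on log2 TPM 0 members were called, where 0 of all 14635 genes were called lower. In edgeR with an offset for RSEM's effective length 0 members were called, where 1 of 14634 genes was called lower. Without KO replicate 1, only Ank1 and Ermap were called, with edgeR adjusted p = 0.0370 and 0.0158, where 0.115% of all genes were called lower. The study's own list of changed genes, made from this experiment, holds most of these members, so their direction is not independent evidence. That list rests on more libraries per group than were analysed here. The members were chosen with earlier results of these data known, so their share called, set against all genes, is not independent evidence. In bulk RNA, fewer cells that express a gene and less of its RNA per cell cannot be told apart.

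**Figure D1:**
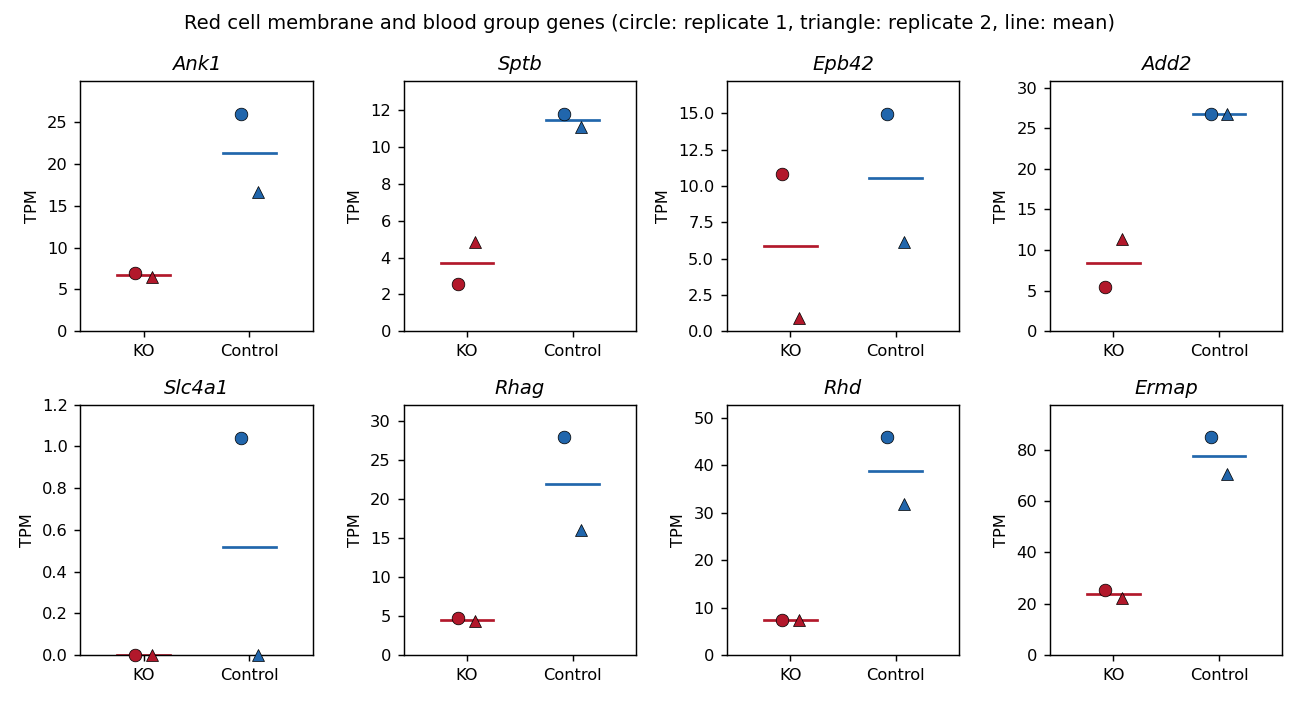
TPM of each member by library, with the 2 KO libraries on the left and the 2 Control libraries on the right of each panel (circle, replicate 1; triangle, replicate 2; line, mean). KO and Control libraries do not overlap for Ank1, Sptb, Add2, Rhag, Rhd and Ermap, overlap for Epb42, and Slc4a1 is above 0 only in Control replicate 1.

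Summed over the 8 members, TPM was 63.3 and 57.7 in KO, against 239 and 179 in Control. The KO mean was 0.289 of the Control mean. The exact two-sided permutation test gave the smallest p that 2 libraries against 2 allow, which is above the threshold. Ermap had the highest TPM of the 8 in all 4 libraries, with 22.4 to 25.5 TPM in KO and 70.7 to 84.9 TPM in Control.

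The proximal promoters of Rhd, Rhag and Ermap are shown because they are the 3 of 6 member promoters found in the RefSeq table (GRCm38.p6) that hold both a GATA form and CACCC, letters that GATA1 and KLF1, known to act on red cell genes, can bind. Each runs from 250 bases before to 50 bases after the RefSeq start, and capitals mark matches on either strand of AGATAA or of the GATA form TGATAA, and of the KLF1 form CACCC. Rhd lies at chr4:134864286-134864585 on the plus strand, Rhag at chr17:40810899-40811198 on the plus strand and Ermap at chr4:119189946-119190245 on the minus strand.
Rhd: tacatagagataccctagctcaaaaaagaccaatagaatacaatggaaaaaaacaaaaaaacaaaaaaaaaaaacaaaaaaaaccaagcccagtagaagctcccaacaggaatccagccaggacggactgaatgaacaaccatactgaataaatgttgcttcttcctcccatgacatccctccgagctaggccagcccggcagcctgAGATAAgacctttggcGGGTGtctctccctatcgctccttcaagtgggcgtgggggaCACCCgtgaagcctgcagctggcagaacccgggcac
Rhag: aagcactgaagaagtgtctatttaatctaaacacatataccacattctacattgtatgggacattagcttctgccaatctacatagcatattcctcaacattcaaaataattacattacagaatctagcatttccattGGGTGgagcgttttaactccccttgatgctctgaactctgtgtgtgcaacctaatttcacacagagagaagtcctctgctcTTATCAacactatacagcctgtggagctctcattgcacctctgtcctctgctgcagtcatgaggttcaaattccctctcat
Ermap: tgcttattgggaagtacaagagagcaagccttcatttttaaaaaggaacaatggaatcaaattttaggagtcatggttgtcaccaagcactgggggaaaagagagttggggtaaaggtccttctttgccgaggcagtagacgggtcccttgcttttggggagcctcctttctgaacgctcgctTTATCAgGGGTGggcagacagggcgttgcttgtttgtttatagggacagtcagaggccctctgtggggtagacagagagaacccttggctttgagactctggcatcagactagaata

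In Rhd, AGATAA began 43 bases before the start and CACCC began 27 bases before it on the opposite strand and 14 bases after it. In Rhag, TGATAA lay 31 bases and CACCC 112 bases before the start, and in Ermap they lay 67 and 60 bases before it, all on the opposite strand. AGATAA or TGATAA was found in 4 of the 6 member promoters and in 18.6% of 32851 RefSeq promoters of the same length. CACCC was found in 5 of 6 and in 57.5%, and both kinds in 3 of 6 and in 8.96%. A match of these letters is not a binding site, and the data hold no measure of binding.

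Among the genes of the spectrin skeleton, Ank1 passed the test and Sptb did not. Ank1 (mm10, chromosome 8, 22974844 to 23150497, plus strand) encodes ankyrin-1, which links spectrin to band 3 and whose loss causes hereditary spherocytosis in humans and mice. Ank1 was at 6.93 and 6.51 TPM in KO, against 26.0 and 16.7 TPM in Control. Both KO libraries were low and close to each other, and the Control libraries were more spread. The means were 6.72 ± 0.297 TPM in KO and 21.3 ± 6.58 TPM in Control (SD, n = 2 each). The log2 fold change was -1.56 (SE 0.182, 95% interval -1.98 to -1.14, edgeR adjusted p = 0.0132). An antisense gene, Gm15816, shares 6.37% of the exonic bases of Ank1, and it had 0 and 24 counts in KO and 0 and 0 in Control, beside 992 and 891 counts in KO and 1860 and 1675 in Control for Ank1.

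Sptb (chromosome 12, 76580488 to 76710547, minus strand) encodes the erythroid beta spectrin, a long rod-shaped protein of the membrane skeleton. Sptb was at 2.58 and 4.87 TPM in KO, against 11.8 and 11.1 TPM in Control. The groups did not overlap, and the KO libraries differed more from each other than the Control libraries did. The log2 fold change was -1.62 (SE 0.285, 95% interval -2.28 to -0.96) with an edgeR adjusted p = 0.065, so Sptb missed the threshold. DESeq2 called it, at an adjusted p = 3.25e-07, where DESeq2 called 3.55% of all genes tested lower, and edgeR called it at an adjusted p = 0.0112 without Control replicate 2.

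Epb42 (chromosome 2, 121017891 to 121037072, minus strand) encodes protein 4.2, which binds band 3 and ankyrin. Epb42 had 2.49 and 1.59 CPM in KO, against 3.74 and 8.67 CPM in Control. In TPM it was at 10.8 and 0.91 in KO, against 15.0 and 6.17 in Control, so the groups overlapped on that scale and not in CPM. RSEM's effective length, the transcript length that TPM divides by, was 325 and 2422 bases in KO and 344 and 1931 bases in Control, where the annotated transcripts span 366 to 4115 bases. Replicate 1 of each group was thus scaled as a short transcript and replicate 2 as a long one. The log2 fold change was -1.62 (SE 0.755, 95% interval -3.36 to 0.12, edgeR adjusted p = 0.513), and -0.89 with the effective lengths as an offset. Epb42 had 54 to 202 counts per library, and a difference was not detectable at this depth and spread.

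**Figure D2:**
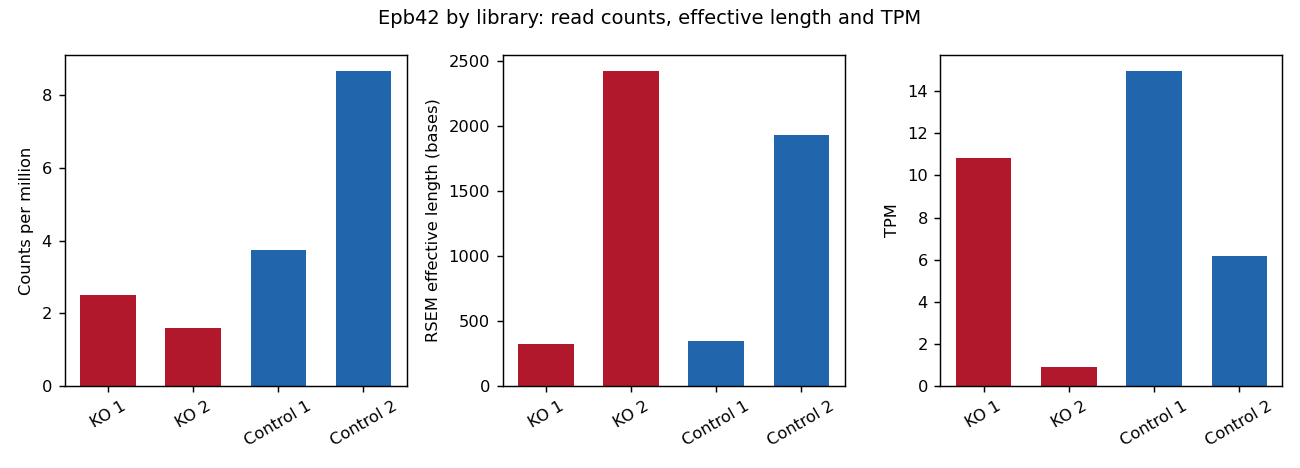
Epb42 in each of the 4 libraries as CPM (left), RSEM effective length in bases (middle) and TPM (right), KO in red and Control in blue. The effective length is 325 and 344 bases in replicate 1 of KO and Control and 2422 and 1931 bases in replicate 2, and the order of the libraries in TPM differs from that in CPM.

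Add2 (chromosome 6, 86028681 to 86124409, plus strand) encodes beta adducin, which caps actin filaments and recruits spectrin to them. Add2 was at 5.43 and 11.4 TPM in KO, against 26.8 and 26.7 TPM in Control. The Control libraries nearly coincided, and both KO libraries lay below them. The means were 8.41 ± 4.21 TPM in KO and 26.7 ± 0.0566 TPM in Control (SD, n = 2 each). Its log2 fold change was -1.86 (SE 0.253, 95% interval -2.45 to -1.28, edgeR adjusted p = 0.0225), and the adjusted p was 0.0538 without KO replicate 1.

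Slc4a1 (chromosome 11, 102348824 to 102366203, minus strand) encodes band 3, the main anion exchanger of the red cell, which carries the Diego antigens in humans. Slc4a1 had 0 and 0 counts in KO, against 67 and 0 counts in Control. All of its reads came from Control replicate 1, where it reached 3.25 CPM. A count of 0 allows up to 0.088 and 0.0885 CPM in KO and 0.129 CPM in Control replicate 2, at 3 counts per library and for counting error only. The gene did not pass the filter on low counts, and with no filter its edgeR adjusted p was 0.489.

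In edgeR, Rhd and Rhag had the most negative log2 fold changes of the 7 members tested. Rhag (chromosome 17, 40811126 to 40840754, plus strand) encodes the Rh-associated glycoprotein, a channel for ammonia that Rh proteins need to reach the membrane. Rhag was at 4.68 and 4.32 TPM in KO, against 27.9 and 16.0 TPM in Control. The KO libraries were alike and the Control libraries differed. Its log2 fold change was -2.37 (SE 0.334, 95% interval -3.15 to -1.60, edgeR adjusted p = 0.0241). Leaving out KO replicate 1 gave an edgeR adjusted p of 0.106, and leaving out KO replicate 2 gave 0.0551.

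Rhd (chromosome 4, 134864536 to 134896172, plus strand) encodes the Rh protein that bears the D antigen in humans. Rhd was at 7.38 and 7.27 TPM in KO, against 45.9 and 31.9 TPM in Control. Both KO libraries lay far below both Control libraries. The means were 7.32 ± 0.0778 TPM in KO and 38.9 ± 9.91 TPM in Control (SD, n = 2 each). The log2 fold change was -2.45 (SE 0.291, 95% interval -3.12 to -1.77, edgeR adjusted p = 0.0133), and the adjusted p was 0.0538 without KO replicate 1. The ratio of Rhd to Rhag TPM was 1.58 and 1.68 in KO and 1.65 and 1.99 in Control, and the groups overlapped (exact permutation p = 0.667).

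Ermap (chromosome 4, 119175457 to 119190011, minus strand) encodes an erythroid membrane protein of the butyrophilin family that carries the Scianna antigens in humans. Ermap was at 25.5 and 22.4 TPM in KO, against 84.9 and 70.7 TPM in Control. The groups were far apart relative to their spread. Its CPM averaged 54.6 ± 5.02 in KO and 170 ± 31.7 in Control (SD, n = 2 each). Its log2 fold change was -1.65 (SE 0.157, 95% interval -2.01 to -1.29, edgeR adjusted p = 0.00695). The ratio of Rhd to Ermap TPM was 0.289 and 0.325 in KO and 0.541 and 0.451 in Control, and that of Rhag to Ermap was 0.183 and 0.193 in KO and 0.329 and 0.227 in Control. For neither ratio did the groups overlap, and the exact permutation test gave the smallest p that 2 against 2 allow, above the threshold.

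Of 15 listed paralogs 10 were tested, and 0 were called by edgeR, where 0.212% of all genes tested were called lower and 0.451% higher. At an unadjusted p under 0.05, 2 were lower and 1 higher, where 674 and 851 of the 14635 genes tested were. DESeq2 likewise called 2 lower and 1 higher, where it called 519 and 628 of all genes tested. In edgeR, the calls of this list changed when either Control library was left out. Sptbn1, the beta spectrin of most cells, was at 102 and 108 TPM in KO, against 80.9 and 80.8 TPM in Control (log2 fold change 0.30, edgeR adjusted p = 0.309). Add1 and Add3, the other adducins, had log2 fold changes of 0.05 and 0.25, and Slc4a2, an anion exchanger of many tissues, -0.11. Tgm2, a transglutaminase related to protein 4.2, was at 9.08 to 10.8 TPM in KO and 17.8 to 22.1 TPM in Control (log2 fold change -1.01, edgeR adjusted p = 0.145). Ank2 and Btn1a1 were low, at up to 2.95 and 0.71 TPM.

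As a share of the summed TPM of its family, Add2 made up 3.29% and 5.25% of the adducins in KO, against 14.7% and 14.1% in Control. Sptb made up 2.47% and 4.33% of the beta spectrins in KO, against 12.8% and 11.2% in Control. Both shares were lower in both KO libraries than in either Control library, with the smallest p an exact permutation test of 2 against 2 allows, above the threshold. Ank1 made up 88.5% and 68.8% of the ankyrins in KO, against 94.9% and 100% in Control. These ankyrin shares rest on few reads of the other ankyrins. Ank2 had 29 and 26 counts in KO, which gave 0.22 and 2.95 TPM, and 0 and 0 counts in Control.

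**Figure D3:**
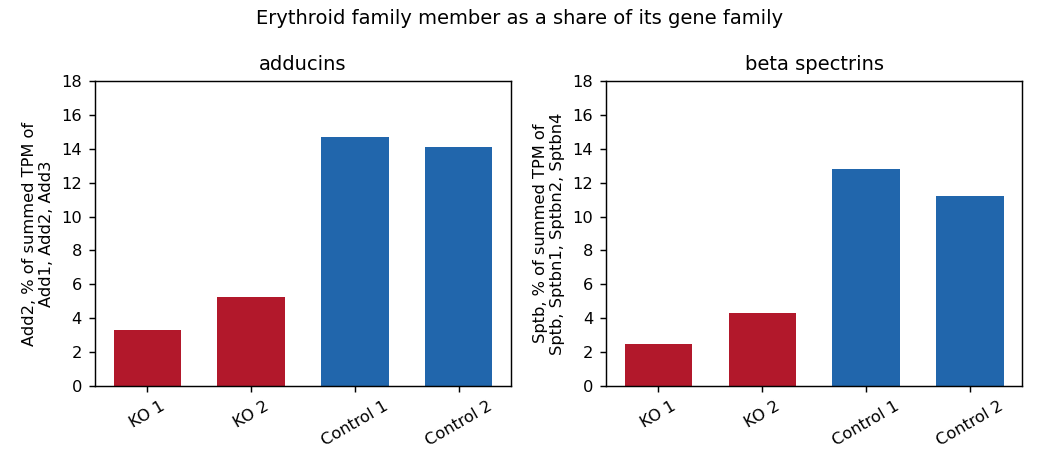
Add2 as a percentage of the summed TPM of the adducins (left) and Sptb as a percentage of the summed TPM of the beta spectrins (right) in each library, KO in red and Control in blue. Add2 is at 3.29% and 5.25% in KO and at 14.7% and 14.1% in Control, and Sptb at 2.47% and 4.33% in KO and at 11.2% to 12.8% in Control.

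Most other genes of the red cell membrane did not pass the test. Over all genes tested, 0.212% were called lower, 4.61% were lower at an unadjusted p under 0.05, and DESeq2 called 3.55% lower. Of 20 partners tested, 1 was called lower and 0 higher (6 lower and 0 higher at an unadjusted p under 0.05, 5 and 0 by DESeq2). The median log2 fold change of the partners was -0.11. Leaving out either KO library gave 0 called. Stom, the gene of stomatin, and Piezo1, that of a mechanosensitive channel, had log2 fold changes of -0.56 and -0.40 and missed the threshold. Epb41, which encodes protein 4.1, had a log2 fold change of -0.01 (95% interval -0.24 to 0.22).

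**Figure D4:**
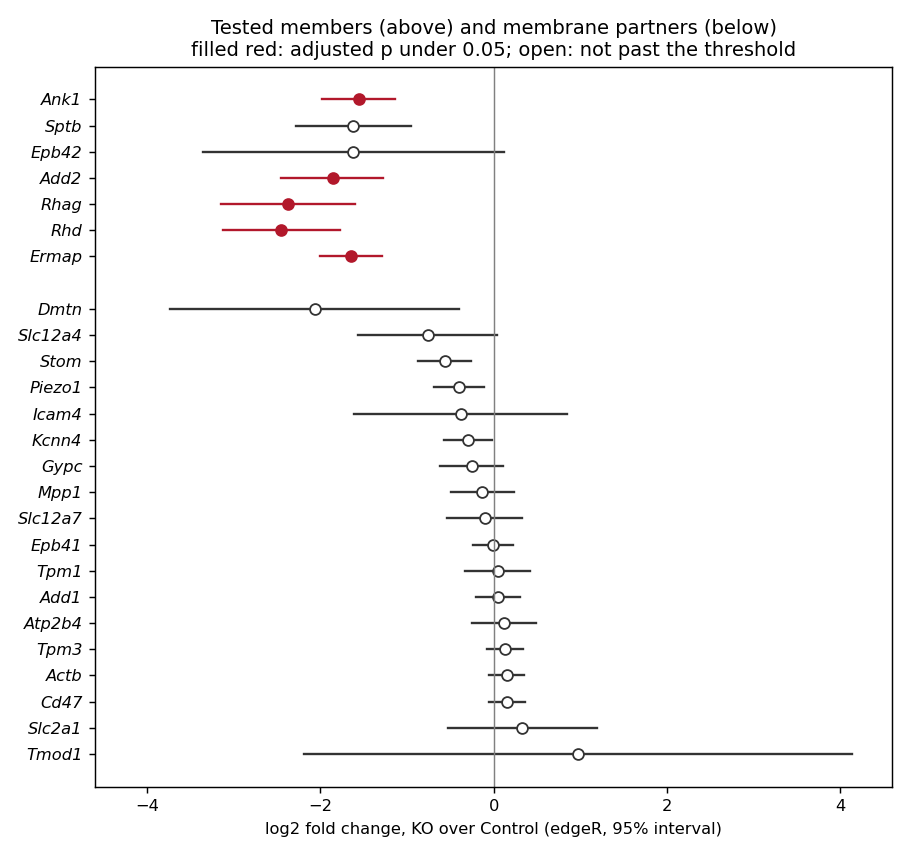
Log2 fold change of KO over Control with its 95% interval from edgeR for the 7 members tested (above) and 18 of the 20 membrane partners (below), filled red where the adjusted p is under 0.05. All 7 members lie below 0, and none of the 18 partners shown is filled.

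Of 30 other blood group genes 25 were tested, and 1 was called lower and 0 higher (5 lower and 0 higher at an unadjusted p under 0.05, 4 and 0 by DESeq2). On the same measures, 0.212%, 4.61% and 3.55% of all genes tested were lower. The median log2 fold change of the list was -0.17. The called gene was Aqp1, the water channel that carries the Colton antigens in humans. Aqp1 was at 55.5 and 64.7 TPM in KO, against 173 and 156 TPM in Control (log2 fold change -1.49, SE 0.124, edgeR adjusted p = 0.00506). Kel, which encodes the Kell protein, was at 12.7 and 4.63 TPM in KO, against 27.0 and 62.7 TPM in Control (log2 fold change -1.80, edgeR adjusted p = 0.0697). Abcb6 and Smim1, which carry the Lan and Vel antigens in humans, had log2 fold changes of -0.85 and -1.48 and were not called.

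Genes of other stages and lineages are given beside the members as a measure of what the sorted cells held. For isolation of long-term stem cells, the study's methods describe c-Kit enrichment and a stem cell stain with antibodies to lineage markers. Among these are Ter119 of red cells, Gr-1 and CD11b of myeloid cells and B220 of B cells. Such a sort would remove cells that bear those markers. The study does not state whether the HSPCs it sequenced were sorted in this way. Over all genes tested, 0.212% were called lower, 4.61% were lower at an unadjusted p under 0.05, and DESeq2 called 3.55% lower. Of 10 early erythroid genes 4 were called lower (Car1, Car2, Blvrb and Tfrc). At an unadjusted p under 0.05, 9 were lower and 0 higher, and DESeq2 called 9 lower. The median log2 fold change was -0.98, and the list's summed TPM was 653 and 766 in KO, against 1452 and 1405 in Control. Leaving out Control replicate 2 gave 8 called, and leaving out KO replicate 1 gave 1. Of 14 erythroid transcription factor genes tested 1 was called lower and 0 higher by edgeR, 5 were lower and 2 higher at an unadjusted p under 0.05 and likewise by DESeq2, and the median log2 fold change was -0.22. The called gene was Klf1, the erythroid activator, at 22.2 and 19.2 TPM in KO, against 68.7 and 49.2 TPM in Control (log2 fold change -1.55, edgeR adjusted p = 0.0328). This call was lost when either KO library was left out (edgeR adjusted p = 0.106 and 0.116), and 3 genes of the list were called lower and 1 higher without Control replicate 2. Gata1 was at 28.6 and 27.6 TPM in KO, against 59.7 and 46.6 TPM in Control (edgeR adjusted p = 0.0931). E2f2, a cell cycle factor, was at 18.7 and 18.5 TPM in KO, against 9.24 and 18.2 TPM in Control (log2 fold change 0.92, edgeR adjusted p = 0.1), and Foxo3, a forkhead factor, had a log2 fold change of 0.50 (edgeR adjusted p = 0.156). Of 14 globin and heme genes tested 0 were called by edgeR, 10 were lower at an unadjusted p under 0.05, 8 were called lower by DESeq2, 3 by edgeR without Control replicate 2, and the median log2 fold change was -0.77, and Alas2, the erythroid enzyme that starts heme synthesis, had 0 counts in all 4 libraries.

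Among all genes tested, edgeR called 0.451% higher and 0.212% lower. At an unadjusted p under 0.05, 4.61% were lower, and DESeq2 called 3.55% lower. All 10 B lineage genes were called higher, with a summed TPM of 677 and 465 in KO, against 65 and 97.1 in Control. Fewer of the 10 were called without KO replicate 1, as over all genes. Of 8 mast cell genes 4 were called higher, with a summed TPM of 402 and 469 in KO, against 105 and 60 in Control. Cma1 and Tpsb2, mast cell protease genes, were at 0 in both Control libraries. Of 10 neutrophil genes 1, Elane, was called lower by edgeR. At an unadjusted p under 0.05, 7 were lower and 0 higher, and DESeq2 called 5 lower. All 10 had a negative log2 fold change, with a median of -0.62. The summed TPM of the neutrophil genes was 6355 and 6531 in KO, against 11858 and 8152 in Control. More of them were called when either Control library was left out, as over all genes. The stem cell, megakaryocyte and macrophage lists, with 12, 12 and 11 genes tested, had 0 genes called by edgeR. In these lists, 2, 1 and 1 were lower at an unadjusted p under 0.05, and 1, 1 and 1 were called lower by DESeq2. Their summed TPM was 576 to 582, 216 to 229 and 48.0 to 49.0 in KO, against 563 to 625, 258 to 268 and 57.5 to 59.7 in Control. The part of the cell makeup in the lower member genes was not tested.

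**Figure D5:**
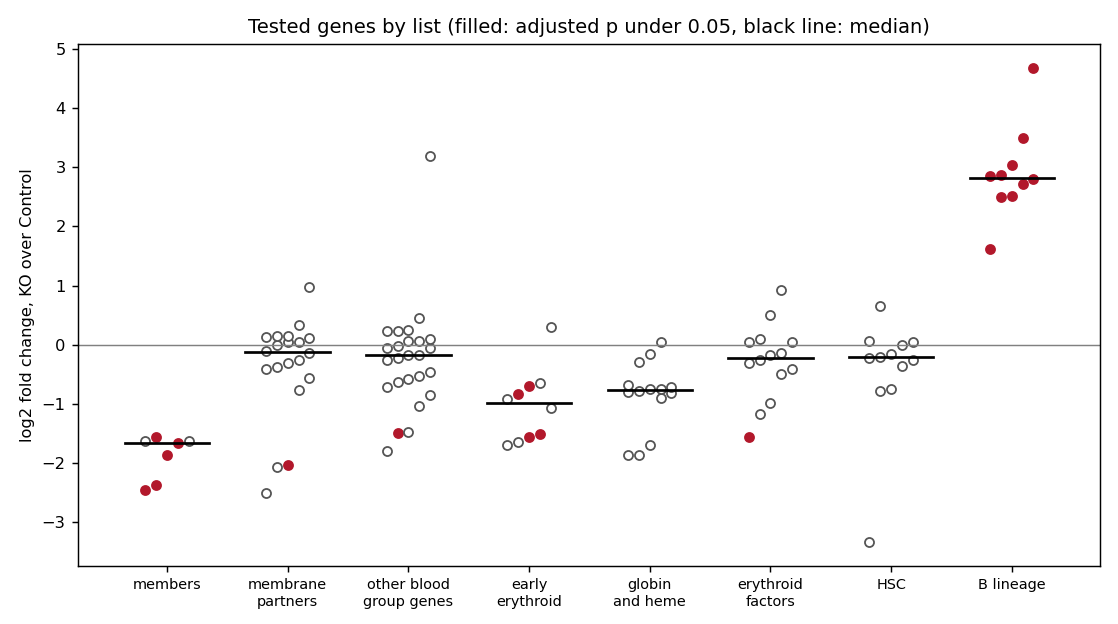
Log2 fold change of KO over Control for each gene tested in 8 lists, 1 point per gene, filled where the edgeR adjusted p is under 0.05, with the list's median as a black line. The members have a median of -1.65, against -0.98 in the early erythroid genes and -0.77 in the globin and heme genes. It is -0.11 in the membrane partners, -0.17 in the other blood group genes and 2.82 in the B lineage genes. The neutrophil genes, with a median of -0.62, are not among the 8 lists shown.

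Over the 4 libraries, the genes whose pattern was most like the members' mean were C1qtnf12, Cpt1a, Pklr, Ccdc189 and Aqp1, out of 12950 genes compared. Likeness was the root mean square difference of log2 CPM centred on each gene's own mean, 0.020 for C1qtnf12, 0.114 for Cpt1a and 0.146 for Pklr, the pyruvate kinase of red cells and liver. Among the members it was 0.120 for Ermap and 0.553 for Epb42. With 4 libraries in 2 groups, this measure largely reflects the size of the difference between KO and Control.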

How the data were processed

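Polyadenylated RNA of sorted bone marrow cells was made into directional libraries (NEBNext Ultra II). STAR, RSEM and mm10 are named in the submitters' processing notes. Versions and the strand setting: not given in the sources used here. The deposited expected counts per gene, estimated by RSEM and not normalized, were whole for every member and were tested. The authors' files also gave TPM, effective lengths and posterior mean counts, which were read for levels and alternatives. GENCODE M21 gave symbols to 55141 of 55401 gene models.

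Expected counts were rounded and tested with edgeR 4.0.16 in R 4.3.3 (quasi-likelihood F test, robust, TMM, filterByExpr at a minimum count of 10, genotype as the only term). P-values were two-sided and Benjamini-Hochberg adjusted across the 14635 genes tested, and calls were made under 0.05 with no fold limit. The biological coefficient of variation was 0.471. Each SE was derived from the coefficient and its F statistic. CPM here is counts over the library's total. Alternatives used DESeq2 1.42.0 and limma 3.58.1 on log2(TPM + 1) and log2(TPM + 0.1). The edgeR step was tested on simulated data with a dispersion of 0.05, where the common dispersion of these data was 0.222. That test does not cover the spread of these libraries.

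The members and lists were chosen with earlier results of these data known. The text names the 8 members, Cpt1a, called genes or up to 4 genes of smallest p in a list, tested paralogs and the 5 genes of most like pattern (mean of at least 1 CPM). Procr, Hoxb5, Fos, Epb41, Alas2, Gm15816 and Plekhg3 were named after their values were seen. Values of some single genes are not reported here. Samples were grouped by the labels, and 2 libraries per group were analysed here.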

Additional observations from a re-analysis of the deposited data

How the results depend on the processing

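All 7 members tested had a negative log2 fold change in every alternative fit. The count called lower, 5 with edgeR, was 0 with limma on log2(TPM + 1), 0 with limma on log2(TPM + 0.1) and 0 with the effective lengths as an offset. The lowest member adjusted p in these 3 fits was 0.241, 0.328 and 0.0746, and 6 members had an unadjusted p under 0.05 in each, where 3.70%, 3.66% and 3.84% of all genes were lower at that threshold. Leaving out 1 library gave 2 to 6 members called, the lowest without KO replicate 1. Over all genes, 31 were called lower and 66 higher. DESeq2 gave 519 and 628, limma 0 and 5 with a pseudocount of 1 and 0 and 0 with 0.1, no filter 85 and 111, and the length offset 1 and 3. Leaving out 1 library gave 18 to 144 lower and 24 to 238 higher. Of the membrane partners, 1 in the report, DESeq2 called 5 lower, no filter 2, both limma fits 0 and 0 and the length offset 0, and leaving out 1 library gave 0 to 2. Of the other blood group genes, 1 in the report, these fits called 4, 2, 0 and 0, and 0, and leaving out 1 library gave 1 to 2. The ratio of summed TPM was 0.253 to 0.337 when 1 library was left out. RSEM posterior mean counts, chosen after seeing the data, called 5 members. The causes of these moves were not tested.

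Over all genes, same-numbered libraries did not deviate together (correlation of same-numbered deviations -0.0239). With 2 libraries per group, this value cannot decide whether the libraries were paired. With the replicate block, 6 members and 36 of all genes were called lower, and 62 higher. With 2 libraries per group, the p-values rest on the spread pooled over genes.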

Other observations

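Plekhg3, a guanine nucleotide exchange factor gene on the strand opposite to Sptb, shares 1 exonic base with it. Plekhg3 had 2009 and 1796 counts in KO, against 412 and 839 in Control (log2 fold change 0.98, edgeR adjusted p = 0.305), the other direction from Sptb.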
